A study of Danio rerio with 7 samples.

Results

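The genes of the proteasome were examined in RNA from whole-body homogenates of 7 adult zebrafish, 4 labelled female (females 4, 7, 8 and 9) and 3 labelled male (males 5, 8 and 9). All 7 were full siblings of 1 hybrid cross, given in the labels as AB x unknown, where AB is a laboratory strain, and no treatment is named. Each fish was hybridised once, in Cy5, to an Agilent array with 2 colours, against a common Cy3 reference made from adults of the same hybrid. Per the series design, the siblings served to relate expression to copy number variants, and the genotypes were not analysed here. Members were the genes with a symbol from psma to psmg followed by a digit, found through the RefSeq transcript of each probe, with the probe of highest mean Cy5 signal standing for its gene. They came to 53 genes, read by 63 probes, of 11484 named genes on the array. Another 6 genes with such symbols (psmb5, psmb11b, psmd12, psme4a, psme4b and psmg4) had no named probe and were not analysed here. The symbol rule also took in psmc3ip, a factor of meiotic recombination, and psme3ip1, whose product binds that of psme3, and neither encodes a subunit.

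The proteasome is the barrel-shaped protease that degrades proteins tagged with ubiquitin in every cell. Its core particle is a stack of outer rings of alpha subunits (psma genes) and inner rings of beta subunits (psmb genes), and some beta subunits carry the cutting sites. A regulatory particle caps the core: its ATPases (psmc genes) unfold the substrate, and its non-ATPase subunits (psmd genes) bind and remove ubiquitin. Other caps (psme genes) open the core without ubiquitin, assembly chaperones (psmg genes) guide the rings together, and psmf1 encodes a protein known as a proteasome inhibitor. Under interferon, beta subunits with cutting sites are replaced by immune ones, which favour peptides for antigen presentation. In fish ovaries, proteasomes are known for their part in oocyte maturation and egg activation.

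Values are log2 ratios of fish over reference, where 0 means a signal equal to the reference and a difference of 1 between fish means a 2-fold change. Between 29.7% of probes (male 5) and 65.2% (female 7) were well above background in Cy5. By the scan dates in the file headers the arrays fell into 3 scan sessions. Females 7 and 9 and male 9 were in session 1, male 8 alone in session 2, and females 4 and 8 and male 5 in session 3, whose arrays were the dimmest. A median over 9 egg coat and oocyte genes lay between -0.47 and 0.61 in the females, at 0.50 in the library labelled male 5, and at -5.33 and -4.29 in males 8 and 9. Over 7 testis genes the median lay between 0.03 and 0.28 in the females, at 0.13 in the library labelled male 5, and at 2.14 and 2.22 in males 8 and 9. The testis genes amh, ropn1l, dmrt1, tekt1 and hsd17b3 were dim (mean Cy5 signal 67.3 to 113), so a ratio near 0 on a dim array can reflect little signal. The brighter cyp26b1 and sycp1 were at 0.13 and 0.49 in the library labelled male 5, against 3.39 and 3.96 in male 8 and 3.01 and 4.62 in male 9. In females 4, 7, 8 and 9 cyp26b1 was at 0.90, 1.62, 0.03 and 0.76, and sycp1 at 0.80, 2.35, 0.57 and 2.24. For sycp1 the females of session 3, the session of male 5, thus lay below those of session 1. Its reference was well above background on 3 arrays. Oocyte genes, and testis genes within these limits, thus went against the label of male 5. Each result is therefore given over all 7 fish and without that library. In the file headers 3 pairs of arrays from different sessions carry the same slide and position ID: female 4 and female 7, female 9 and male 5, and female 8 and male 9. Over all tested probes their log2 ratios correlated at 0.63, 0.47 and 0.30, within the range of the other 18 pairs (0.30 to 0.87), and they were treated as separate arrays. Whether a shared ID bears on the values of male 5 was not tested. In whole-body RNA, fewer cells of a type and less RNA per cell cannot be told apart.

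Of the 53 genes, 50 were tested, being well above background in Cy5 on at least 3 of the 7 arrays. They were 10 alpha, 7 beta and 3 immune beta genes of the core, 7 ATPase and 14 non-ATPase genes of the regulatory particle, 3 activators, 1 inhibitor, 3 assembly chaperones and the 2 genes that encode no subunit. The other 3 were left untested. The immune gene psmb8a was not well above background on any array, and psmb11a, named after the mammalian thymus subunit, and psmd5, an assembly chaperone of the regulatory particle, on 2 arrays each. No member was saturated on any array, and 42 were well above background on all 7.

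After loess, proteasome genes were close to the reference in 5 fish and below it in 2. This level depends on the normalisation. Under median centring the mean of the class medians over the 7 fish was -1.30 for alpha and -1.24 for non-ATPase genes, against -0.30 and -0.27 after loess. The median over the 50 genes was -0.02, 0.04, -0.10 and -0.01 in females 4, 7, 8 and 9, and 0.03, -0.87 and -0.68 in males 5, 8 and 9. The library labelled male 5 lay beside the females, and males 8 and 9 lay apart from the other 5 fish. Between 23 and 29 of the 50 genes were below the reference in each female, against 23 in the library labelled male 5, 43 in male 8 and 41 in male 9. Males 8 and 9 were both below all 5 other fish in 32 of the 50 genes, a pattern found in 23.3% of all probes measured in every fish and in 47.5% of probes at or above the members' median Cy5 signal. They were both above the other 5 fish in 3 genes, psmb10, psmd7 and psme2, and in 24.7% of all probes.

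**Figure D1:**
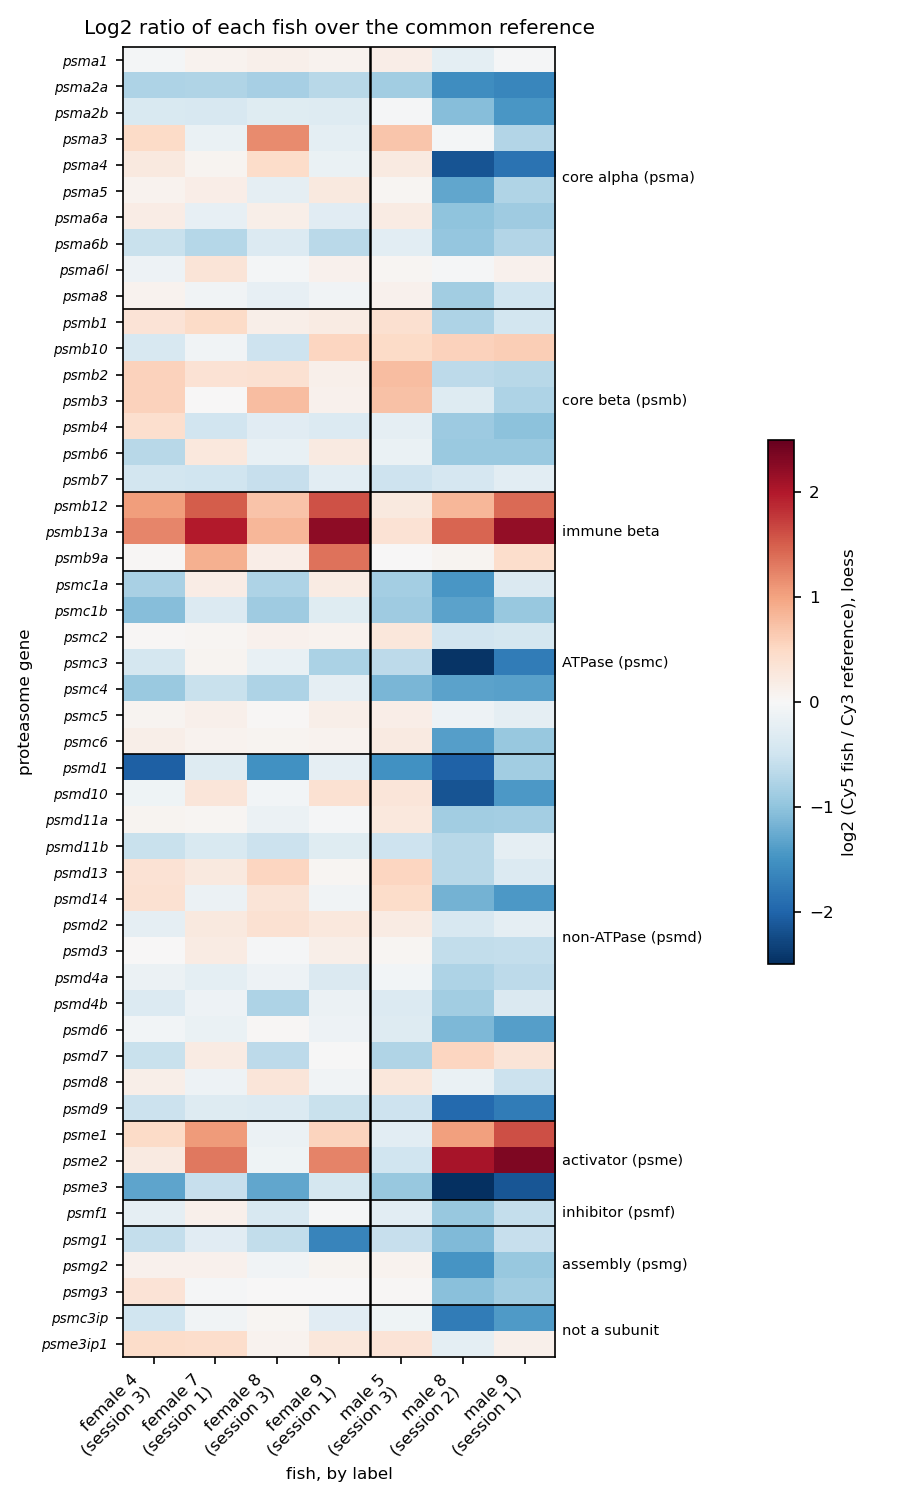
Log2 ratio of fish over reference (colour scale) for each of the 50 tested genes (down the page, grouped by class) in each of the 7 fish (across). Most cells of males 8 and 9 are blue, with medians of -0.87 and -0.68, while the library labelled male 5 resembles the females, with a median of 0.03, and the immune beta genes and psme1 and psme2 show another order.

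Between the 4 females and the 3 fish labelled male, 0 of the 50 genes passed an adjusted p of 0.05 by limma, as did 0% of all 22705 probes, and the smallest adjusted p of a member was 0.539. The fitted difference (female minus male) was positive in 44 of the 50 genes, where 47.4% of all probes were positive. Its median over the members was 0.46, against -0.02 over all tested probes. An unadjusted p under 0.05 was reached by 9 members and by 6.72% of all probes. With the scan session as a block 0 members passed and 3 had an unadjusted p under 0.05, and the median difference was 0.30. Within session 3, where females 4 and 8 stand against the library labelled male 5 alone, 0 of the 50 passed, 1 had an unadjusted p under 0.05 (1.14% of all probes), and the median difference was -0.07. With weights that count discordant arrays less, 13 members passed, all higher in females, against 6.1% of all probes. The median difference was then 0.59. These weights were set from the fit to the sex labels, so a library at odds with its label can count less. The fitted difference was more positive in session 1 than in session 3 in 5 members, psma2b, psma4, psmd10, psmd14 and psme3, by an interaction term. Of all probes 7.21% passed that term, 3.42% in the same direction and 3.79% in the other. Each session held 1 male, in session 3 the library labelled male 5, and the other fish supply the spread, so this sets 2 single males against each other rather than showing a sex effect that differs.

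In 3 genes every female lay above every fish labelled male, and in 0 genes below. Over all probes measured in every fish, 1.92% had such a gap upward and 1.78% downward. psmd6, a subunit of the lid of the regulatory particle, was at -0.06, -0.17, 0.03 and -0.12 in females 4, 7, 8 and 9, against -0.33, -1.12 and -1.37 in males 5, 8 and 9 (difference 0.86 ± 0.25, SE; adjusted p = 0.539). For psmc4, an ATPase, the ratios were -0.93, -0.56, -0.78 and -0.23 in the females, against -1.15, -1.34 and -1.35 in the 3 males (difference 0.66 ± 0.20). The alpha subunit gene psma2a was at -0.77, -0.76, -0.83 and -0.70 in the females, against -0.87, -1.56 and -1.63 in the 3 males (difference 0.59 ± 0.21). By its dimmer probe the groups overlapped, at -0.39, -0.81, -0.04 and -0.75 against 0.07, -0.87 and -1.41 (difference 0.24 ± 0.37). By the chosen probes of all 3 genes the library labelled male 5 was the male nearest to the females, and none of the 3 passed over the 7 fish.

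Without the library labelled male 5, 23 of the 50 genes passed, 22 higher and 1 lower in the 4 females than in males 8 and 9. Of all probes, 25.4% passed, 13.2% as higher and 12.1% as lower. The median difference was 0.66 over the members and -0.05 over all tested probes, and 13 of the genes higher in females differed by 2-fold or more. The share of all probes that did so was not counted. The difference was positive in 44 members and in 45.9% of all probes, and an unadjusted p under 0.05 was reached by 31 members and by 38.7% of all probes. Members were brighter than most probes, and bright probes as a whole leaned to the females. Brightness was the mean Cy5 signal over the 7 fish, most of them labelled female, and it also chose each gene's probe. A cut on it can thus favour probes high in females, and how far it did was not tested. Among the 25 members at or above the members' median Cy5 signal, 14 were higher and 0 lower in females, where 39.2% of the probes in that range were higher and 12.9% lower. The median difference in that range was 0.82 over members and 0.61 over probes. In the fit restricted to probes well above background on all 7 arrays, 21 of 42 members passed as higher, against 21.4% of probes. With the scan session as a block, which leaves females 7 and 9 against male 9 to set the difference, 18 members passed as higher and 1 as lower, against 9.21% and 11% of probes. Of the 22 members higher without the block, 15 passed with it. With that block the spread came from females alone, since no session held more than 1 male, so spread between males did not enter. When male 8 was left out as well, which leaves male 9 as the only male, the median difference over the members was 0.63. Within session 1 alone, whose single male was given the spread of the other fish, 21 passed as higher and 1 as lower, against 12.7% and 16.8% of probes. When arrays were centred on their median in place of loess, 0 members passed (3.11% of all probes did). Of the 50 members, 34 had an unadjusted p under 0.05 (26.2% of all probes) and 48 of the 50 differences were positive (62.4% of all probes). The median of all probes was itself 0.24 under that centring, and that of probes as bright as the brighter members 1.87, against a member median of 1.84.

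**Figure D2:**
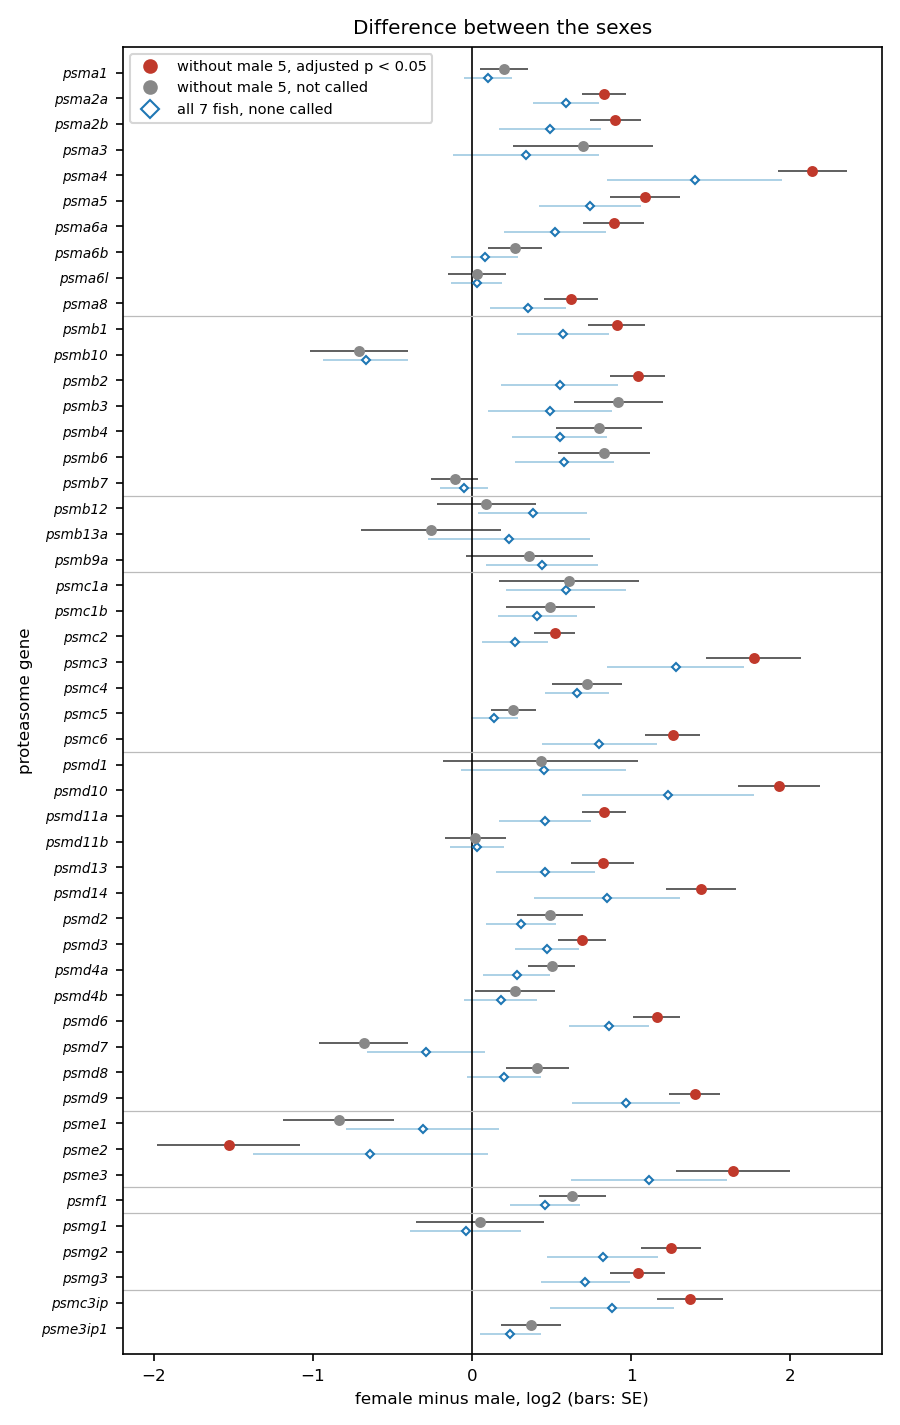
Fitted difference between the sexes (female minus male, log2, bars are standard errors) for each of the 50 tested genes, over all 7 fish (open diamonds) and without the library labelled male 5 (filled circles, red where the adjusted p is under 0.05). The 22 red circles right of 0 run through the core, the regulatory particle and the assembly chaperones, and include psme3 and psmc3ip. The 1 red circle left of 0 is psme2.

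Of the 10 alpha genes of the core, 6 passed as higher in females without male 5. For this and each class below, the share was 13.2% over all probes and 39.2% over probes at or above the members' median Cy5 signal. Classes also hold dimmer members, such as psma6l, so the second share comes from a brighter set than the counts. psma4, the alpha gene with the brightest probe, showed the widest difference of any member, at 0.24, 0.07, 0.45 and -0.17 in females 4, 7, 8 and 9, against 0.22, -2.15 and -1.84 in males 5, 8 and 9. Males 8 and 9 were far below all others, and the library labelled male 5 lay within the females. Without it the difference was 2.14 ± 0.22 (SE; adjusted p = 0.00221), or 4.41-fold. psma5 was at 0.08, 0.17, -0.23 and 0.25 in the females and at 0.04, -1.29 and -0.76 in the 3 males, a difference of 1.09 ± 0.22 without male 5 (adjusted p = 0.0153). psma2b, a close relative of psma2a, varied little among the females, at -0.38, -0.40, -0.31 and -0.32, with -0.03 in the library labelled male 5 and -1.06 and -1.45 in males 8 and 9 (difference 0.90 ± 0.16, adjusted p = 0.0108). psma2a followed with 0.83 ± 0.14 (adjusted p = 0.00767), though its dimmer probe did not pass (0.64, adjusted p = 0.141). psma6a differed by 0.89 ± 0.19 (adjusted p = 0.0192) and psma8 by 0.62 ± 0.17 (adjusted p = 0.044), and these 2 did not pass with the session block (adjusted p = 0.0627 and 0.215). In mammals the name psma8 belongs to a testis subunit, while the zebrafish gene also has the synonym psma7. It was at 0.09, -0.08, -0.20 and -0.08 in the females and at 0.10, -0.87 and -0.50 in the 3 males, lower in males 8 and 9 than in every other fish. The other 4 alpha genes, psma1, psma3, psma6b and psma6l, did not pass, with differences from 0.03 to 0.70.

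Of the 7 tested beta genes outside the immune group, 2 passed as higher in females. psmb2, which encodes a beta subunit without a cutting site, was at 0.57, 0.37, 0.38 and 0.13 in the females, against 0.78, -0.65 and -0.70 in males 5, 8 and 9. The library labelled male 5 was above all 4 females and males 8 and 9 were below them, and without male 5 the difference was 1.04 ± 0.17 (adjusted p = 0.00768). psmb1, likewise without a cutting site, was at 0.35, 0.48, 0.14 and 0.20 in the females and at 0.40, -0.78 and -0.45 in the 3 males (difference 0.91 ± 0.18, adjusted p = 0.0141; 0.0682 with the session block). Of the 3 constitutive subunits that do the cutting, 2 had a named probe. psmb6, the caspase-like one, was at -0.70, 0.26, -0.18 and 0.22 in the females and at -0.17, -0.93 and -0.93 in the 3 males, and did not pass (0.83 ± 0.29, adjusted p = 0.084; 0.0452 with the session block). psmb7, the trypsin-like one, was at -0.46, -0.50, -0.57 and -0.27 in the females and at -0.52, -0.42 and -0.27 in the 3 males. These fish overlapped fully, the difference was -0.11 ± 0.15 (adjusted p = 0.648), and the within-sex SD of 0.13 was the smallest of the 50 tested genes.

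The ATPase ring of the regulatory particle had 3 of 7 genes higher in females without male 5. psmc3 was at -0.43, 0.06, -0.19 and -0.79 in the females, against -0.66, -2.46 and -1.75 in males 5, 8 and 9. Males 8 and 9 were the lowest and the library labelled male 5 lay within the females, and the difference without it was 1.77 ± 0.30 (adjusted p = 0.00885; 0.0725 with the session block). psmc6 held a narrow range in the females, at 0.15, 0.08, 0.07 and 0.09, with 0.22 in the library labelled male 5 and -1.38 and -0.94 in males 8 and 9 (difference 1.26 ± 0.17, adjusted p = 0.00425). psmc2 differed by 0.52 ± 0.13 (adjusted p = 0.033), and did not pass with the session block (0.102). psmc4, with no overlap over the 7 fish, did not pass without male 5 (0.72 ± 0.22, adjusted p = 0.0573; 0.0448 with the session block). The other 3, psmc1a, psmc1b and psmc5, had differences from 0.26 to 0.61 and did not pass.

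Of the 14 tested non-ATPase genes, 7 passed as higher in females. psmd14 encodes the enzyme that cuts ubiquitin from the substrate. It was at 0.39, -0.14, 0.33 and -0.08 in the females, against 0.46, -1.19 and -1.43 in males 5, 8 and 9 (difference without male 5 1.44 ± 0.22, adjusted p = 0.00582). The library labelled male 5 was the highest of all 7 fish, and males 8 and 9 were more than 2-fold below the lowest female. Among the other lid subunits, psmd6 differed by 1.16 ± 0.15 (adjusted p = 0.00392), psmd11a by 0.83 ± 0.14 (0.00873), psmd13 by 0.82 ± 0.20 (0.0275) and psmd3 by 0.69 ± 0.15 (0.0179). psmd13 did not pass with the session block (adjusted p = 0.153). psmd7, the lid partner of psmd14, had the opposite order, at -0.55, 0.21, -0.65 and -0.01 in the females and at -0.75, 0.53 and 0.33 in the 3 males. It did not pass (-0.68 ± 0.28, adjusted p = 0.125), its dimmer probe gave -0.12, and under median centring of the arrays its sign turned (0.56).

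The remaining members of the 7, psmd10 and psmd9, are known in mammals and yeast as chaperones that help the ATPase ring to assemble. psmd10 was at -0.10, 0.31, -0.06 and 0.39 in the females, against 0.31, -2.15 and -1.44 in males 5, 8 and 9, with a difference without male 5 of 1.93 ± 0.26 (adjusted p = 0.00428), or 3.8-fold. Its other probe gave 0.73 ± 0.23 (adjusted p = 0.0606), so the size for this gene depends on the probe. psmd9 was at -0.54, -0.32, -0.34 and -0.55 in the females and at -0.52, -1.94 and -1.74 in the 3 males (difference 1.40 ± 0.16, adjusted p = 0.00265). For both genes males 8 and 9 lay below the other 5 fish.

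The chaperones of core assembly went the same way in 2 of 3 genes. psmg2 was at 0.11, 0.10, -0.09 and 0.06 in the females, against 0.08, -1.47 and -0.95 in males 5, 8 and 9 (difference without male 5 1.25 ± 0.19, adjusted p = 0.00595). psmg3 was at 0.35, -0.03, 0.00 and -0.00 in the females and at 0.02, -1.04 and -0.87 in the 3 males (1.04 ± 0.17, adjusted p = 0.00843; 0.0563 with the session block). Apart from female 4, the fish outside males 8 and 9 sat within a few hundredths of the reference for psmg3. The inhibitor gene psmf1 was at -0.23, 0.12, -0.40 and -0.03 in the females and at -0.26, -0.95 and -0.59 in the 3 males, and did not pass (0.63 ± 0.21, adjusted p = 0.0674; 0.04 by its dimmer probe). psmc3ip, the recombination factor with no place in the proteasome, passed (1.37 ± 0.21, adjusted p = 0.00601), and without it and psme3ip1 the count was 22 of 48 genes.

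Taken whole, core and regulatory particle had similar medians in each fish, though classes within them differed more. The median over the 17 alpha and beta genes of the core was 0.08, -0.08, -0.18 and -0.08 in females 4, 7, 8 and 9, and 0.10, -0.87 and -0.74 in males 5, 8 and 9. The 21 tested psmc and psmd genes stood for the regulatory particle, with the assembly chaperones psmd9 and psmd10 among them. Their median was -0.14, 0.04, -0.12 and -0.08 in the females, and -0.06, -0.87 and -0.66 in the 3 males. Core minus regulatory particle stayed between -0.12 and 0.22 in all 7 fish. By class, the beta gene medians were 0.35, 0.01, -0.18 and 0.13 in the females and 0.40, -0.65 and -0.70 in the 3 males. The ATPase medians were -0.43, 0.06, -0.19 and 0.08, and -0.66, -1.34 and -0.94. For the ATPase genes the library labelled male 5 thus lay below every female. Without male 5, 8 of 17 core genes and 10 of 21 regulatory genes passed as higher in females, psmd9 and psmd10 included. In either group 0 passed as lower. The median differences of core and regulatory genes were 0.83 and 0.61. Over all probes 13.2% were higher, and among probes at or above the members' median Cy5 signal 39.2%, with a median difference of 0.61. Both counts lie near the share of bright probes, though both groups also hold dimmer genes, and are not read as a result about either particle. No test set the particles against each other.

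**Figure D3:**
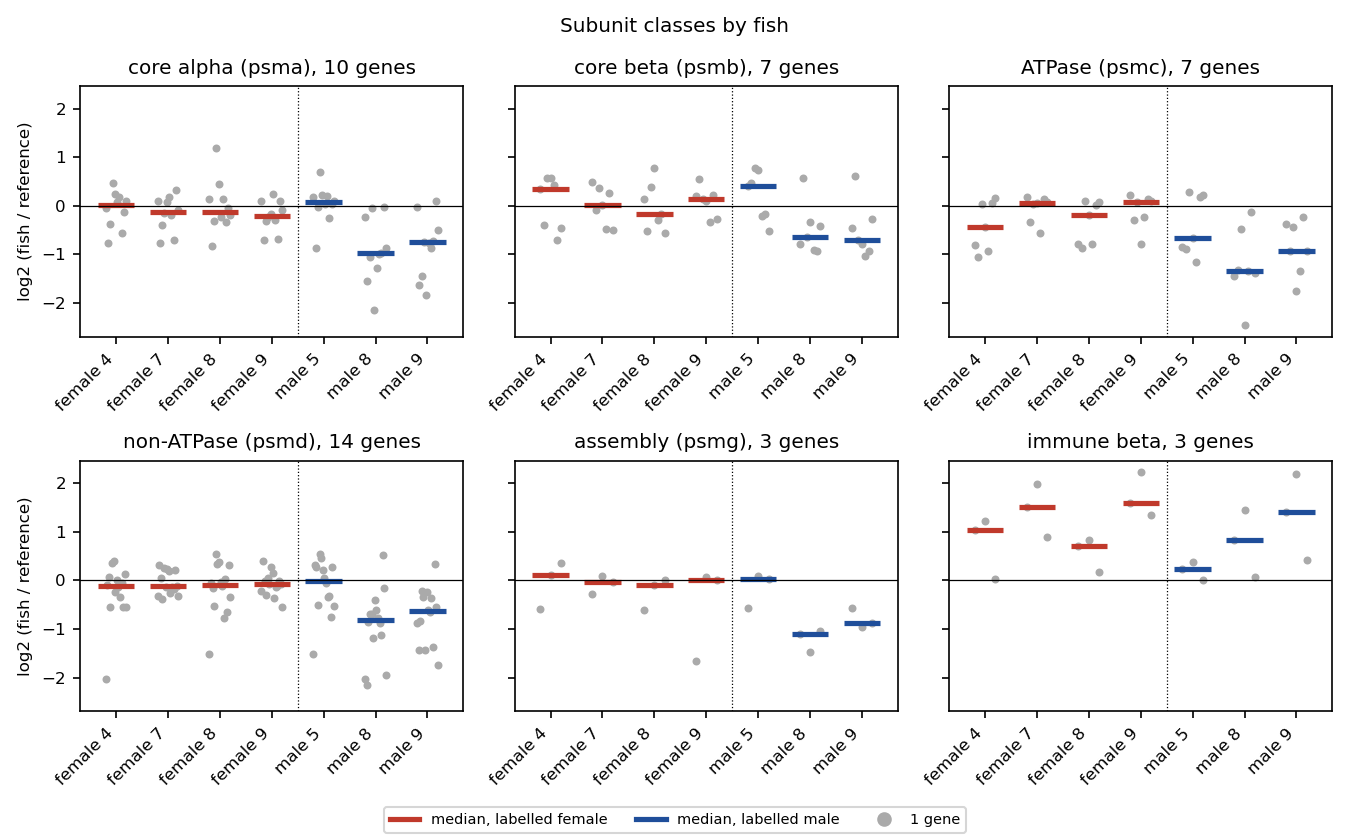
Log2 ratio of fish over reference for the tested genes (grey points) of 6 classes in each fish, with the class median as a bar (red for fish labelled female, blue for fish labelled male). In 5 classes males 8 and 9 have the lowest medians (for example -0.98 and -0.75 for the alpha genes), and in the immune beta class the lowest median is that of the library labelled male 5 (0.24).

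The 3 tested genes of the psme family did not share 1 direction. psme3, whose product forms a nuclear cap, was at -1.31, -0.57, -1.29 and -0.43 in the females, against -0.94, -2.93 and -2.14 in males 5, 8 and 9. Without male 5 it was higher in females by 1.64 ± 0.36 (adjusted p = 0.0195), and its other 2 probes gave 1.74 (0.00301) and 0.76 (0.0372). psme2, an interferon-inducible subunit of the cytoplasmic cap, was the 1 member lower in females. It was at 0.22, 1.31, -0.11 and 1.24 in the females, against -0.49, 2.06 and 2.34 in the 3 males (difference without male 5 -1.53 ± 0.45, adjusted p = 0.049; -1.06, 0.0339 with the session block). The females fell into 2 levels by scan session, with females 7 and 9 of session 1 above females 4 and 8 of session 3. The library labelled male 5, also in session 3, was the lowest of all fish, and males 8 and 9 were the highest. psme1, which forms that cap together with psme2, was at 0.48, 1.06, -0.14 and 0.55 in the females and at -0.26, 1.03 and 1.62 in the 3 males, and did not pass (-0.84 ± 0.35, adjusted p = 0.126). The sign for psme1 turned under median centring (0.05).

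The immune beta genes showed no difference between the sexes that passed. In the gene table psmb13a, psmb8a, psmb12 and psmb9a are 4 consecutive genes. psmb13a was at 1.22, 1.99, 0.83 and 2.23 in females 4, 7, 8 and 9, against 0.37, 1.45 and 2.2 in males 5, 8 and 9 (difference without male 5 -0.26 ± 0.44, adjusted p = 0.703). psmb12 was at 1.04, 1.51, 0.71 and 1.59 in the females and at 0.24, 0.83 and 1.41 in the 3 males (0.09 ± 0.31, adjusted p = 0.853). psmb9a, the counterpart of psmb6, was at 0.03, 0.89, 0.17 and 1.35 in the females and at 0.00, 0.07 and 0.43 in the 3 males (0.36 ± 0.40, adjusted p = 0.546), and was well above background in 2 females and 2 males. In all 3 genes the highest values were those of the 3 fish scanned in session 1, whatever their sex. The same held for 7 of the 50 members and for 8.16% of all probes, and whether the session plays a part in these values was not tested. The reference was not well above background for these 3 genes on any array, so their ratios depend on the background correction. From the scanner software's processed signals, the log2 ratios of psmb13a were 5.27, 5.85, 4.38 and 6.53 in the females and 2.60, 4.46 and 6.58 in the 3 males, far above those given here but with the library labelled male 5 again lowest.

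psmb10 is the inducible counterpart of psmb7 and was counted with the beta genes of the core. It was at -0.40, -0.09, -0.52 and 0.54 in the females, against 0.47, 0.57 and 0.62 in males 5, 8 and 9. Males 8 and 9 were above all other fish, female 9 was above the library labelled male 5, and the difference without male 5 did not pass (-0.71 ± 0.31, adjusted p = 0.142; 0.11 under median centring).

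**Figure D4:**
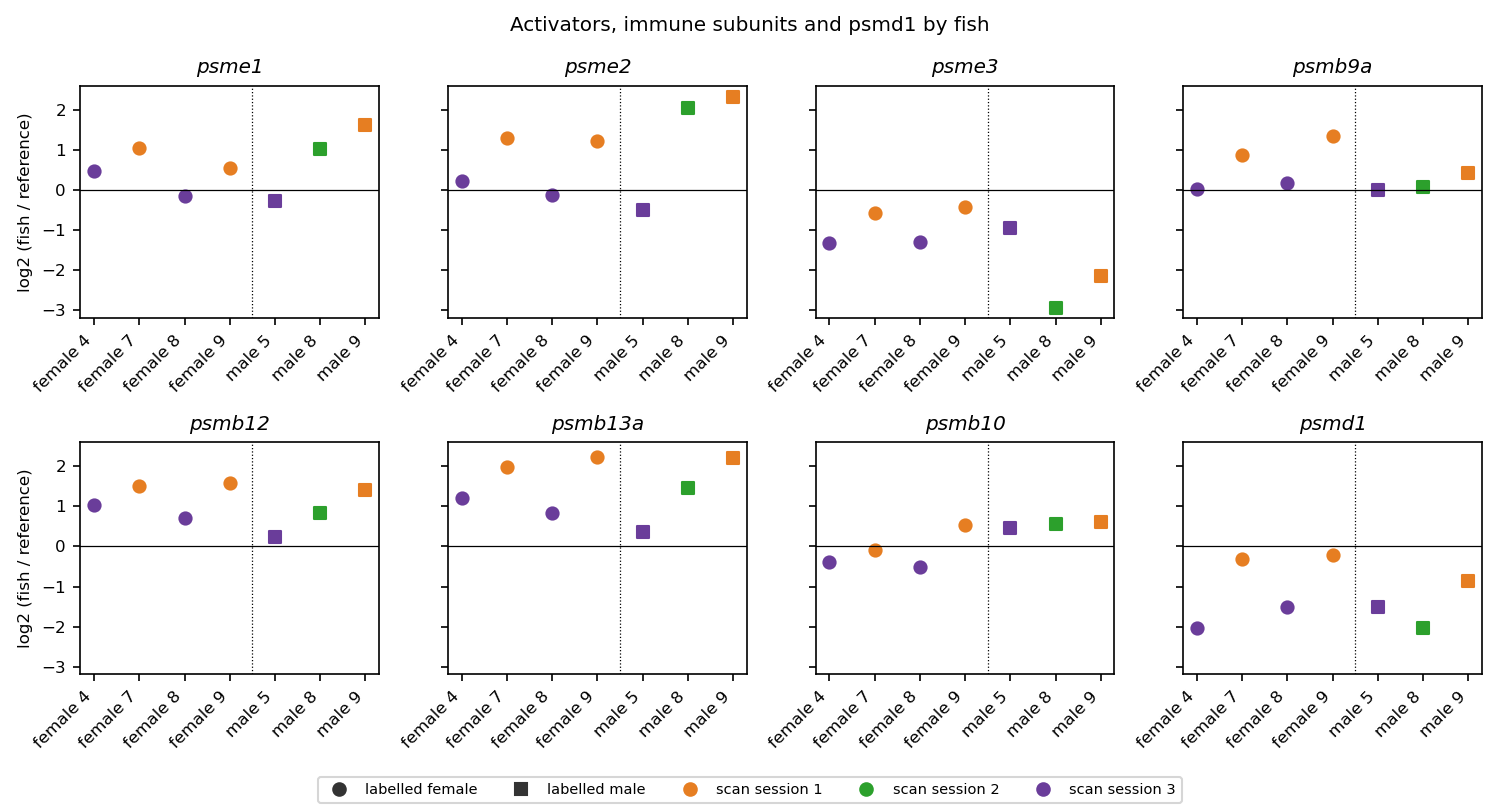
Log2 ratio of fish over reference in each fish for 8 genes, circles for fish labelled female and squares for fish labelled male, coloured by scan session. psme3 is lowest in males 8 and 9 (-2.93 and -2.14) while psme2 is highest there (2.06 and 2.34), and psmb9a, psmb12, psmb13a and psmd1 are highest in the 3 fish of session 1.

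Spread between fish of the same sex label was given as the SD pooled within sex. It had a median of 0.44 over the members and of 0.35 over all tested probes. Over genes well above background on all 7 arrays it was 0.44 for members and 0.50 for probes. Without male 5 it fell to 0.24 for members and 0.27 for probes. The 4 widest were psme2 (1.13), psma4 (0.84), psmd10 (0.82) and psmd1 (0.79). psmd1, a scaffold of the regulatory particle, was at -2.04, -0.32, -1.52 and -0.22 in the females and at -1.51, -2.03 and -0.87 in the 3 males. The 3 fish of session 1 lay above the rest, females and male alike, and it did not pass (0.43 ± 0.61 without male 5, adjusted p = 0.646). More than 1 probe was present for 9 members, and the probes of psmd4a and psmd8 differed in sign, as did those of psmf1 over all 7 fish. For psmd4a, a receptor for ubiquitin chains, the chosen probe gave 0.50 ± 0.15 (adjusted p = 0.052) and the other -0.74 ± 0.54 (0.366) without male 5, and for psmd8, a lid subunit, they gave 0.41 and -0.28.

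Genes that feed or bind the proteasome were read from 5 further lists, in none of which any gene passed over all 7 fish. Without male 5, 6 of 19 genes of ubiquitin supply and activation were higher and 1 was lower in females, with a median difference of 0.48. Over all probes 13.2% were higher and 12.1% lower, and among probes at or above the members' median Cy5 signal 39.2% and 12.9%. The counts of 0 genes higher, among 12 genes of transcriptional control and 11 of antigen presentation, lie below these shares. No list was tested as a set, so the counts for all 5 lists, here and below, are no result about the lists. The polyubiquitin gene ubc was at -0.67, -0.44, -0.73 and -0.27 in the females, against -0.64, -2.69 and -1.89 in males 5, 8 and 9 (1.76 ± 0.26, adjusted p = 0.00575), the order seen for most subunits. The others higher were ube2ia, ube2h, ube2nb, ube2d3 and uba3 (0.67 to 1.25), which encode enzymes that activate or conjugate ubiquitin or its relatives. uba1, the main activating enzyme, was at -1.75, 0.47, -1.84 and 0.37 in the females and at -1.78, -3.46 and -0.78 in the 3 males. Females 7 and 9 of session 1 were above all others, and the gene did not pass (1.44 ± 1.00, adjusted p = 0.339; 0.0172 with the session block). The 1 lower was the conjugating enzyme ube2d4 (-1.40 ± 0.14, adjusted p = 0.00225). Both deubiquitinases that dock on the regulatory particle were higher in females. usp14 was at 0.00, -0.06, -0.04 and -0.11 in the females, against 0.08, -2.31 and -1.68 in the 3 males (1.94 ± 0.20, adjusted p = 0.00231), and uchl5 differed by 1.05 ± 0.19 (0.0103). They were the 2 of 7 tested genes of proteasome-bound proteins that passed, and the median of that list was -0.03. Next in size were txnl1 (-0.23) and ube3c (0.20), which did not pass.

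Of 16 genes that deliver substrates, 3 were higher in females and 1 was lower, with a median of 0.14. The unfolding ATPase gene vcp differed by 0.94 ± 0.17 (adjusted p = 0.0116), its cofactor ubxn7 by 1.42 ± 0.16 (0.00253) and zfand2a, whose mammalian relative binds the proteasome under stress, by 1.42 ± 0.28 (0.0146). ubxn1, another cofactor of vcp, was lower (-0.53 ± 0.15, adjusted p = 0.0407), and sdcbp2 did not pass (-0.99 ± 0.42, 0.132). Of 12 genes that control proteasome transcription, 0 were higher and 2 lower in females. nfe2l2a, a regulator of the oxidative stress response, was at 1.28, 1.28, 0.86 and 1.07 in the females, against 0.48, 3.51 and 2.83 in the 3 males (-2.05 ± 0.24, adjusted p = 0.00297). nfya, a subunit of a promoter-binding factor, differed by -0.63 ± 0.18 (0.0481). maff (-0.61 ± 0.35, adjusted p = 0.251) and stat3 (-0.59 ± 0.47, 0.41) did not pass. With the session block, 8 of the genes named from these 4 lists passed (ubc, uba1, ube2d4, usp14, vcp, ubxn7, zfand2a and nfe2l2a), and the others did not.

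Of 11 antigen presentation genes, 0 were higher and 2 lower in females without male 5, and the median difference was -1.08. b2m, the light chain of class I molecules, was at 1.68, 2.46, 1.14 and 1.99 in the females, against 0.27, 4.20 and 3.59 in males 5, 8 and 9 (-2.08 ± 0.38, adjusted p = 0.0113). stat1a, a transcription factor of interferon signalling, differed by -1.29 ± 0.33 (0.0314). b2ml (-1.83 ± 0.55, adjusted p = 0.0529) and irf1b, another interferon factor (-1.54 ± 0.47, 0.0567), did not pass. b2m and stat1a did not pass with the session block (adjusted p = 0.0521 and 0.158). psme2 was lower in females too and psme1 had a negative difference, while psmb9a, psmb12 and psmb13a did not pass in either direction.

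Markers of cell types differed between the same fish. Without male 5, all 9 tested genes of the egg coat and oocyte list were higher in females (median difference 4.87). Testis genes were lower in 6 of 7, skeletal muscle genes in 5 of 7, liver genes in 3 of 4, red blood cell genes in 1 of 2 and immune cell genes in 2 of 5. Over all probes 13.2% were higher and 12.1% lower, and lists of 2 to 5 genes are too short to set against these shares. The immune cell list, at medians of 0.07, 1.07, 0.15 and 1.11 in females 4, 7, 8 and 9 and 0.15, 1.11 and 1.31 in males 5, 8 and 9, was high in the fish of session 1 and in male 8, and low in the fish of session 3. The part of tissue makeup in the proteasome values was not tested.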

How the data were processed

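The authors deposited spot intensities on a linear scale with local background. Per the file headers, these came from Agilent Feature Extraction 10.5.1.1 under protocol GE2_105_Jan09_2, for design 019161. The deposited value table holds log10 ratios of Cy5 over Cy3, and it equalled the scanner software's own ratio at every spot. Per the labels, total RNA was extracted with Trizol, but the protocol given for labelling is one for denatured DNA, so how RNA was labelled is not given in the sources used here. Dyes were not swapped.

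Here, background was corrected by normexp (offset 50) on median signal and median background, since the files hold no mean signal. Loess was run within each array, and arrays were not scaled to each other. Left out were 1417 control spots and 98 spots marked as outliers, and repeat spots were averaged. Of 43603 probes, 22705 were well above background in Cy5 on at least 3 arrays and were tested. Probes were named through RefSeq accessions in the GRCz12tu gene table (16568 named, 38%), and no coordinates were used. Each difference was tested two-sided with lmFit and eBayes of limma 3.58.1 (R 4.3.3) and Benjamini-Hochberg adjustment over all tested probes at a threshold of 0.05, and the script was tested on simulated data. Per the labels, each fish is 1 animal on 1 array, though 3 pairs of arrays share a slide and position ID in the headers. P-values thus measure the spread between fish as labelled, and the number of arrays limits precision.

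Genes are named by this rule: every member that passed, the 5 largest differences each way, immune subunits and their partners, the brightest of each class, extremes of spread, probes that disagree, and, from each pathway list, genes that passed or had the 4 largest differences without male 5. Members, lists and tests were chosen with earlier results of these data known. Alternatives were median centring, processed signals, the deposited table, other filters, the mean over probes, array weights, the scan session or fish number as a block, and each fish left out.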

Additional observations from a re-analysis of the deposited data

Results flagged for a closer look

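In psmg3, female 4 (0.35) stood apart from females 7, 8 and 9 (-0.03, 0.00 and -0.00), with a gap of 0.905 of the females' whole range, above Dixon's 95% critical value for 4 samples. Chance alone gives about 1 such result in 20 groups, and 4.93% of all probes had one.

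A limma interaction term of sex label and scan session flagged psmd10, psme3, psma4, psmd14 and psma2b. In session 1 females 7 and 9 were set against male 9, and in session 3 females 4 and 8 against male 5. Each session held 1 male, so the other fish supply the spread, and the term sets male 9 against a library whose label is in doubt. It thus does not show a sex effect that differs between sessions. The interaction was 2.18 for psmd10 (adjusted p = 0.033), 2.0 for psme3 (0.033), 1.66 for psma4 (0.0465), 1.42 for psmd14 (0.0419) and 1.40 for psma2b (0.0438). All 5 were positive, and 3.42% of all probes passed as positive and 3.79% as negative. The within-session differences were 1.79 in session 1 and -0.39 in session 3 for psmd10, 1.64 and -0.36 for psme3, 1.79 and 0.12 for psma4, 1.32 and -0.10 for psmd14, and 1.09 and -0.31 for psma2b. These values are those of the chosen probes. By the other probe of psmd10 the interaction was 0.96, and by the other probes of psme3 it was 1.67 and 0.76, so its size depends on the probe. Session, the label of male 5 and the brightness of the arrays cannot be told apart in this comparison.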

How the results depend on the processing

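Precision is limited by 7 arrays, of which the 3 of session 3 were the dimmest, and by 2 males without male 5. Over all 7 fish the count of genes passed was 13 with array weights, which can count a library at odds with its label less. Leaving out each fish gave 0 to 23, with 23 without male 5. In 2 further fits male 5 did not set the difference, so their counts are no result over all 7 fish. The replicate block gave 12, where only fish numbers 8 and 9 occur in both sexes. Within session 1 the count was 22, from females 7 and 9 against male 9 as the only male. Over all 7 fish the median difference was 1.40 under median centring. It was -0.07 within session 3, where females 4 and 8 stand against male 5 alone. Without male 5 the count was 0 under median centring (34 at an unadjusted p under 0.05, and 3.11% of all probes passed) and 12 with the replicate block. Leaving out each female gave 19 to 21. With male 8 or male 9 also left out, 1 male remained and the median difference was 0.63 or 0.71. Shares of all probes for the fits with a further fish left out are not given here. The median difference was 1.84 under median centring, 1.08 with processed signals, 1.08 with the deposited table and 0.81 when only probes above background everywhere were kept. The median over all probes was 0.24 under median centring and -0.33 with processed signals, and relative to it 45 and 43 members were higher, against 44 with loess. Probes at or above the members' median Cy5 signal had medians of 1.87 and 0.93 there. With fish numbers 8 and 9 as a block, the pairing was checked by the correlation of same-numbered fish (-0.133 and 0.427), and these are separate animals that share only a number.

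Class levels moved under median centring, to -1.30 from -0.30 for alpha, -1.12 from -0.09 for beta, -1.57 from -0.49 for ATPase, -1.24 from -0.27 for non-ATPase, -1.43 from -0.33 for inhibitor and -1.10 from -0.28 for assembly genes. Immune genes moved to 4.62 with processed signals and 4.62 with the deposited table, from 1.05. The within-sex SD was 0.88 under median centring, 0.69 with processed signals and 0.69 with the deposited table, and 0.24 to 0.48 leaving out each fish, 0.24 without male 5.

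Signs turned, without male 5, for psmb10 (0.11), psmb7 (1.25), psmd7 (0.56) and psme1 (0.05) under median centring, and for psmb7 (0.02 and 0.02) and psmb9a (-0.59 and -0.80) with processed signals and the deposited table. They also turned for psmd4a by the mean of its probes (-0.12), for psmb12 without female 7 (-0.01), female 9 (-0.03) or male 8 (-0.20; range to 0.38), and for psmd1 without male 8 (-0.15; range to 1.01). psmb13a turned without male 9 (0.11; range from -0.63) and with sessions 1 and 2 alone (0.28), the last chosen after seeing the data. None of these 9 genes had passed. psma8, psmc2, psmd13, psmd3 and psme2 lost their call when single fish were left out, as did psma6a without male 8 or male 9 and psma5, psmb1, psmc3 and psme3 without male 8. The causes were not tested.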

Other observations

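Among 8766 other genes measured in every fish, the 5 whose log2 ratios lay closest to the median profile of the proteasome genes over the 7 fish were mrpl21, zmynd11, scube2, rnf7 and ildr1b, at root mean square distances of 0.073 to 0.101. mrpl21, which encodes a protein of the mitochondrial ribosome, was at -0.15, -0.04, -0.13 and 0.04 in females 4, 7, 8 and 9 and at -0.00, -0.83 and -0.59 in males 5, 8 and 9. rnf7, a subunit of ubiquitin ligases, was at 0.18, 0.05, -0.00 and -0.04 in the females and at 0.14, -0.79 and -0.70 in the 3 males. The likeness is a description over 7 arrays that share the reference.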
